A study of Mus musculus with 12 samples.

Results

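The immediate early genes described here are Fos, Fosb, Jun, Junb, Egr1, Egr2, Ier2, Ier3, Atf3 and Dusp1. They were measured on 12 single-colour Agilent arrays of total RNA from mouse embryonic fibroblasts, cells grown out of embryos and kept in culture. The 10 genes were listed by name with results of these arrays already known, and they were chosen by their signal over the replicate numbers and groups, so those levels are given as a description, with no test. They are 10 of 17305 genes that could be named on the array, and they hold 11 probes, since Junb has 2 and the other 9 genes have 1 each. All 11 probes were well above background on every array. The cells were wild-type for Atm (Atm-WT) or Atm-deficient (Atm-KO). The Atm kinase starts the cell's response to broken DNA. Each genotype was left nonirradiated or received 4.32 Gy, and RNA was taken after 72 hours of culture. That gives 4 groups of 3 samples, numbered 1 to 3 in each group. The labels do not say what a number marks, or whether samples came from separate embryos or cultures, so a p-value here measures only the spread between these samples. They also give no strain, passage or Atm allele.

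Immediate early genes are the genes a resting cell switches on first after a growth factor, serum, stress or damage signal, without making new protein beforehand. The signal reaches them through MAP kinases, through serum response factor (Srf) with its Elk and Mrtf partners, which bind the CArG box, and through Creb and Atf proteins, which bind cAMP response elements. Their mRNAs are short-lived and usually fall again within hours. Fos and Jun family proteins join as AP-1, Egr proteins are zinc finger activators, and Dusp1 is a phosphatase that turns the MAP kinases off again.

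The sequences just before the start of transcription are shown for 5 of the genes and for Zfp36. Zfp36 is the gene outside the list whose pattern over the 12 arrays was most like theirs. Elements through which the early response is known to act can lie in such stretches, but also further away. They are the 150 bases before the RefSeq start, from assembly GRCm38.p6, read on the strand of the gene, with matches to the searched motifs in capitals. The search took 250 bases before the start on both strands, and 8 of the 10 genes were matched in the promoter set, that is all but Egr1 and Ier2.
Fos, chr12:85473740-85473889, plus strand, with TGACG in capitals: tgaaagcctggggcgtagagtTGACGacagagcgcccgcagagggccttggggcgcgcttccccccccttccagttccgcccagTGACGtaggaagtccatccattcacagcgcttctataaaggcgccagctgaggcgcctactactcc
Fosb, chr7:19310046-19310195, minus strand, with TGACG and the Egr motif GCGNGGGCG in capitals: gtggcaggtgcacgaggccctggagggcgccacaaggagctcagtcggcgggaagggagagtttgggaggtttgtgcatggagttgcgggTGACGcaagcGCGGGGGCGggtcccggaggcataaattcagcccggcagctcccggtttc
Jun, chr4:95052223-95052372, minus strand, with TGACATCA in capitals: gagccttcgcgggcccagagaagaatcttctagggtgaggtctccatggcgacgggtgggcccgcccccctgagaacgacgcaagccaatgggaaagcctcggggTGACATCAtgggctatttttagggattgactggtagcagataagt
Dusp1, chr17:26508473-26508622, minus strand, with TGACGTCA in capitals: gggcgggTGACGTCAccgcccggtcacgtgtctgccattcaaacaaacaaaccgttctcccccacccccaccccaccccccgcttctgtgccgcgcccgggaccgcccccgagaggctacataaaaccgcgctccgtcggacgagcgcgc
Egr2, chr10:67537416-67537565, plus strand, with a CArG box in capitals: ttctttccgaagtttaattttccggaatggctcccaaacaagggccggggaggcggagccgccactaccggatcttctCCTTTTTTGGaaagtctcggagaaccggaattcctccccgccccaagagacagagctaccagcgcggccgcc
Zfp36, chr7:28379229-28379378, minus strand, with GCGNGGGCG and a CArG box in capitals: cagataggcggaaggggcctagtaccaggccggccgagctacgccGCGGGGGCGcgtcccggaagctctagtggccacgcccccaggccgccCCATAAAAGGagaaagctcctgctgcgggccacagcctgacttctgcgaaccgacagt

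The motif TGACG, the core that Creb and Atf proteins recognise, occurred within 250 bases before the start in 6 of the 8 matched genes, namely Fos, Fosb, Junb, Egr2, Atf3 and Dusp1. It occurred in 17.8% of all 32851 promoter windows of that length and, counted by gene, in 19.8% of 27025 genes. Of the other early response genes listed further below, 17 of 36 matched ones had it. The full palindrome TGACGTCA, which contains TGACG, was found in Dusp1, against 1.55% of windows. The related TGACATCA was found in Jun, against 2.93% of windows. A CArG box was found in Egr2, against 1.47% of windows, and GCGNGGGCG in Fosb, against 4.70%. The AP-1 motif TGANTCA, present in 6.75% of windows, was in 0 of the 8. Counted by gene, the shares were 1.77% for TGACGTCA, 3.41% for TGACATCA and 1.62% for the CArG box. They were 5.33% for GCGNGGGCG and 7.82% for TGANTCA. These are matches of letters, not measured sites. Elements more than 250 bases before the start were not searched, so a motif not found here may still lie near the gene.

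Before the comparisons, one feature of the samples has to be stated, because every value below carries it. The 4 samples numbered 1 stood apart from the 8 numbered 2 and 3. A limma F test for replicate number, with group in the fit, called 5188 of 18438 features tested (28.1%), with number 1 lower in 15.1% and higher in 13.1%. The test asks whether the numbers differ in any way, and lower or higher is the sign of number 1 minus the mean of 2 and 3. With normexp background correction, 0.298% of features passed as lower in number 1. Levels are log2 signals minus the 75th percentile of the same array, so that 0 is that percentile, and a value is not comparable between probes. The 75th percentile itself lay between 425 and 757 intensity units on the number 1 arrays and between 378 and 513 on the others, the share of probes well above background ranged from 55.3% to 64.5%, and 0 probes of these genes or others were saturated. Each of the 3 slides held 4 arrays. The number 1 arrays lay on 2 of these slides and at 4 different positions. The 10 fibroblast markers were well above background on all 12 arrays. Atm, on its brighter probe, lay between -5.65 and -2.87 in Atm-WT samples and between -7.50 and -5.41 in Atm-KO samples, so the genotypes overlapped a little at this dim probe.

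Within every group, all 10 immediate early genes were lowest in the sample numbered 1, while samples 2 and 3 lay close together. This held in 40 of 40 combinations of gene and group. Number 1 lay below the nearer of the other samples by 0.58 to 5.72 on the log2 scale, whereas samples 2 and 3 of a group differed by a median of 0.18 and at most by 0.56. The median over the 40 was 5.53-fold lower in number 1 than in the mean of 2 and 3. For each of the 10 genes, the 4 number 1 samples lay below all 8 others, an order found for 8.64% of all features, and for 4.1% in the opposite direction. Number 1 was lowest in all 4 groups for 17.6% of features. The genes were listed with this pattern known, so nothing is read from those shares. In RNA from whole cultures, fewer cells of a type that expresses a gene cannot be told apart from less RNA of it per cell.

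**Figure D1:**
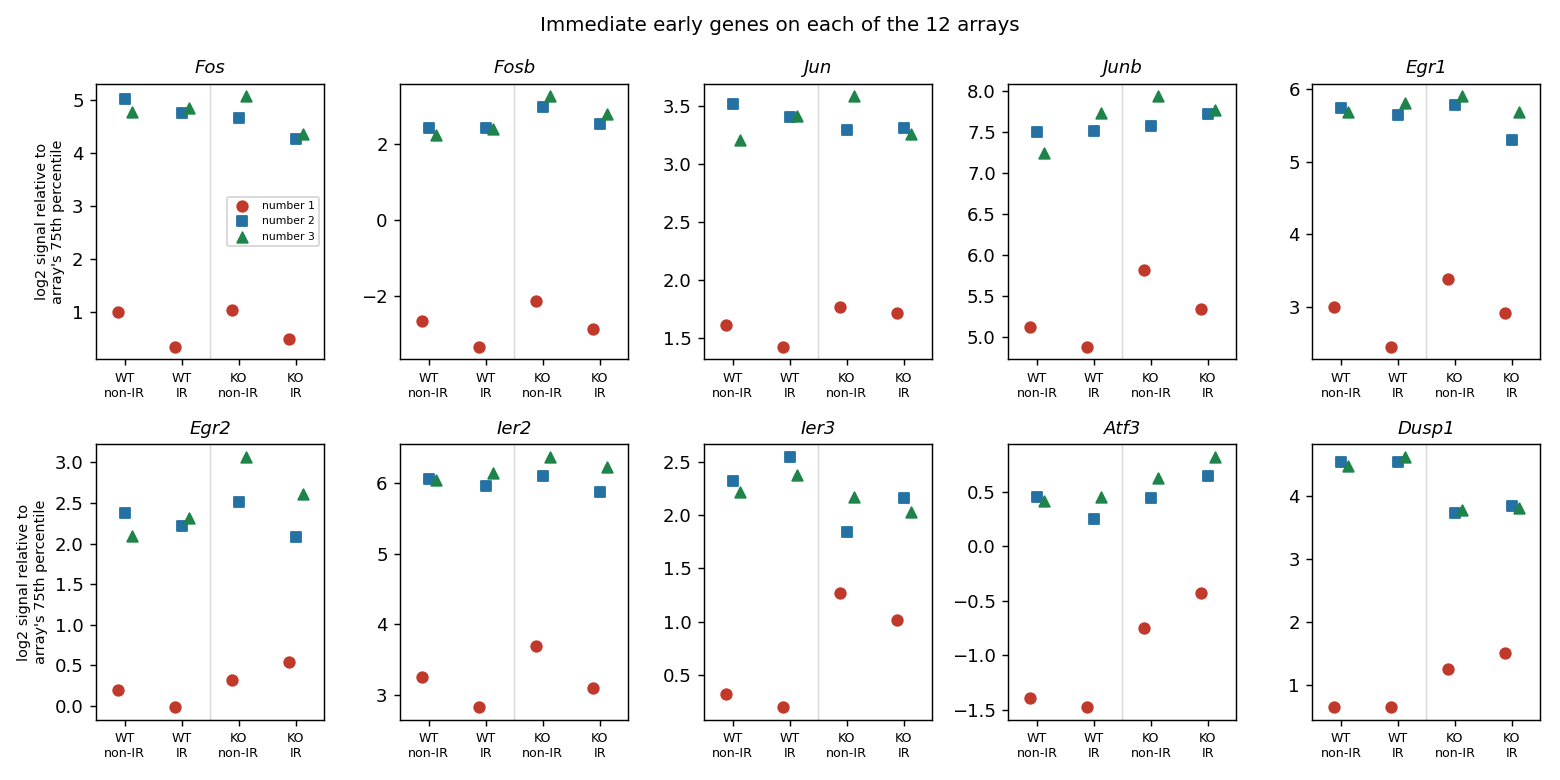
Log2 signal minus the 75th percentile of its array (y axis, one scale per gene) for the 10 immediate early genes in the 4 groups, 1 point per array, with colour and shape giving the replicate number. In each panel the 4 red circles (number 1) lie below all 8 other points.

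Fos and Fosb, the partners that make AP-1 strongly active, showed the widest gap. The Fos level in samples 1, 2 and 3 was 1.01, 5.01 and 4.76 in nonirradiated Atm-WT cells and 0.36, 4.75 and 4.85 in irradiated Atm-WT cells. It was 1.05, 4.66 and 5.06 in nonirradiated Atm-KO cells and 0.50, 4.26 and 4.36 in irradiated Atm-KO cells. Numbers 2 and 3 were therefore 14.1-fold to 21.7-fold above number 1 in every group. Fosb levels were -2.66, 2.43 and 2.23 in nonirradiated and -3.32, 2.42 and 2.39 in irradiated Atm-WT cells, numbers 1 to 3. In Atm-KO cells they were -2.12, 2.98 and 3.26 without irradiation and -2.87, 2.52 and 2.80 after it. Fosb was thus below the array's 75th percentile in all number 1 samples and above it in all others, a gap of 31.7-fold to 53.0-fold.

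Jun and Junb, the partners of Fos proteins in AP-1, followed the same order with a narrower gap. Jun lay at 1.62, 3.52 and 3.21 in nonirradiated Atm-WT samples 1 to 3, at 1.43, 3.41 and 3.41 in irradiated ones, at 1.77, 3.29 and 3.59 in nonirradiated Atm-KO samples and at 1.72, 3.31 and 3.27 in irradiated ones. Its gap was 2.97-fold to 3.94-fold, and its 8 samples numbered 2 and 3 spanned only 0.38. Junb, on the brighter of its probes, lay at 5.12, 7.49 and 7.24 in nonirradiated and at 4.88, 7.51 and 7.73 in irradiated Atm-WT samples. The Atm-KO samples lay at 5.82, 7.57 and 7.94 without irradiation and at 5.34, 7.71 and 7.77 after it. The gap of Junb was 3.82-fold to 6.67-fold. Its other probe gave the same order, with 4.62, 7.22 and 7.17 in nonirradiated Atm-WT samples and 4.91, 7.19 and 7.35 in irradiated Atm-KO samples, so both probes of the gene placed number 1 lowest.

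The zinc finger activators Egr1 and Egr2 also had separate ranges. Egr1 was at 3.00, 5.74 and 5.68 in nonirradiated and 2.45, 5.64 and 5.81 in irradiated Atm-WT samples 1 to 3, and at 3.38, 5.78 and 5.90 in nonirradiated and 2.92, 5.30 and 5.68 in irradiated Atm-KO samples. Numbers 2 and 3 of Egr1 were 5.52-fold to 9.65-fold above number 1. Egr2, better known from myelinating Schwann cells and the hindbrain, was at 0.20, 2.38 and 2.09, then -0.02, 2.22 and 2.31, in nonirradiated and irradiated Atm-WT samples. The Atm-KO levels were 0.32, 2.51 and 3.07, then 0.54, 2.08 and 2.61. Egr2 had the largest difference between samples 2 and 3 of any gene listed, 0.56 in nonirradiated Atm-KO cells, which is still far under its gap of 3.49-fold to 5.55-fold.

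Ier2 encodes a small nuclear protein and Ier3 a stress-induced protein linked to cell survival. Ier2 levels were 3.25, 6.06 and 6.04 in nonirradiated and 2.82, 5.96 and 6.14 in irradiated Atm-WT samples 1 to 3. They were 3.69, 6.10 and 6.37 in nonirradiated and 3.09, 5.88 and 6.23 in irradiated Atm-KO samples, a gap of 5.85-fold to 9.37-fold over the groups. Ier3 differed from Ier2 in how the genotypes compared. It lay at 0.32, 2.32 and 2.21 in nonirradiated and 0.20, 2.54 and 2.38 in irradiated Atm-WT samples, but at 1.26, 1.84 and 2.17 in nonirradiated and 1.02, 2.15 and 2.03 in irradiated Atm-KO samples. The mean gap of Ier3 was 4.30-fold in Atm-WT and 1.88-fold in Atm-KO cells. Its smallest gap, 1.67-fold in nonirradiated Atm-KO cells, was the smallest of the 40.

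Atf3, a stress-induced relative of the Creb and Jun proteins that often represses its targets, lay at -1.40, 0.45 and 0.41 in nonirradiated and -1.48, 0.25 and 0.45 in irradiated Atm-WT samples 1 to 3. In Atm-KO samples Atf3 was at -0.76, 0.44 and 0.62 without irradiation and at -0.43, 0.65 and 0.82 after it. As for Jun, Junb, Egr2, Ier3 and Dusp1, both Atm-KO number 1 samples of Atf3 were above both Atm-WT number 1 samples. The gap of Atf3 was 3.55-fold in Atm-WT and 2.34-fold in Atm-KO cells. Dusp1 lay at 0.65, 4.53 and 4.46 in nonirradiated and at 0.64, 4.53 and 4.61 in irradiated Atm-WT samples, and at 1.24, 3.73 and 3.78 and at 1.50, 3.84 and 3.81 in the matching Atm-KO samples. The gap of Dusp1 was 14.8-fold in Atm-WT and 5.34-fold in Atm-KO cells, since number 1 was higher and numbers 2 and 3 were lower in Atm-KO cells. Dusp1 was also the gene whose samples 2 and 3 lay closest, within 0.08 of each other in every group.

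**Figure D2:**
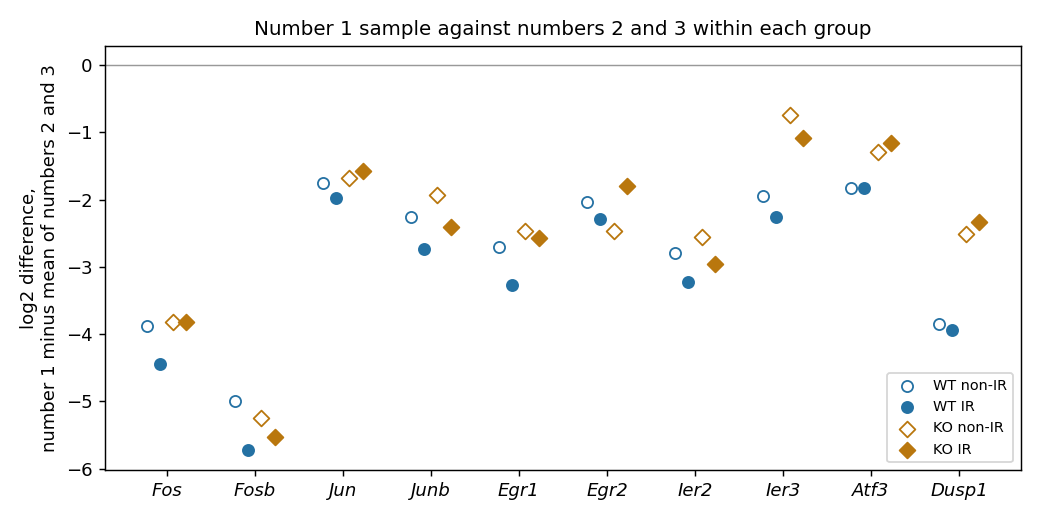
Difference of the number 1 sample from the mean of samples 2 and 3 (y axis, log2) for each immediate early gene, with blue circles for Atm-WT and brown diamonds for Atm-KO, open for nonirradiated and filled for irradiated cells. All 40 points lie below 0, from -0.74 for Ier3 to -5.73 for Fosb. For Fos, Jun, Egr1, Ier3, Atf3 and Dusp1 both brown diamonds lie above both blue circles.

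The gap was smaller in both Atm-KO groups than in both Atm-WT groups for 6 of the 10 genes. By group, its median over the 10 genes was -2.48 in nonirradiated Atm-WT, -2.98 in irradiated Atm-WT, -2.47 in nonirradiated Atm-KO and -2.37 in irradiated Atm-KO cells. With 1 number 1 sample per group, these group differences have no replicate.

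Between arrays of the same slide only the size of the gap is further information. Its direction follows from the order above, in which every number 1 sample lay below all others. On the first slide, which held the Atm-WT samples 1 and 2, number 1 minus number 2 ran from -5.09 to -1.85 over the 10 genes in nonirradiated cells and from -5.74 to -1.73 in irradiated cells. On the second slide, Atm-KO number 1 minus Atm-WT number 3 ran from -4.35 to -0.95 without irradiation and from -5.26 to -0.88 after it. That all 10 genes were lower in number 1 in these 4 within-slide pairs therefore adds nothing to that order. In the second slide the pair also crosses the genotypes. Every slide had its nonirradiated cells at positions 1 and 3 and its irradiated cells at 2 and 4, so a position effect cannot be told apart from irradiation.

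Over all 12 arrays the 10 genes varied together, with Pearson correlations of 0.897 to 0.998 over their 45 pairs and a median of 0.967. Over the 8 arrays numbered 2 and 3 the same pairs ran from -0.808 to 0.911, with a median of 0.410. The arrays of a pair share scaling, slide and sample, and the first set of correlations holds the number 1 gap.

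The first comparison of the design asks what irradiation had done to the cells 72 hours later. For the immediate early genes the differences between the 2 treatments lay far inside the unpaired spread between samples of a group. That spread is mostly the number 1 gap by which the genes were chosen, since samples 2 and 3 differed by at most 0.56. It also ignores the same-numbered pairs, so it cannot show whether irradiation changed these genes. Group means of a gene differed by 0.13 (Jun) to 0.88 (Fosb) from the lowest to the highest of the 4 groups, while the SD within a group ran from 0.46 to 3.31. In all 10 genes the range of the 4 means was smaller than the smallest of the 4 SDs. No neighbouring groups in the order of any gene thus differed beyond that spread, number 1 gap included. Fos, for example, was at 3.59 ± 2.24 in nonirradiated and 3.32 ± 2.56 in irradiated Atm-WT cells, and at 3.59 ± 2.21 and 3.04 ± 2.20 in Atm-KO cells (SD, n = 3 each), which is the order irradiated Atm-KO, irradiated Atm-WT and then the nonirradiated groups. Junb was at 6.62 ± 1.31 and 6.71 ± 1.58 in Atm-WT and at 7.11 ± 1.13 and 6.94 ± 1.39 in Atm-KO cells. Atf3 had the widest range of means relative to its spread, with -0.18 ± 1.06 and -0.26 ± 1.06 in Atm-WT and 0.10 ± 0.75 and 0.34 ± 0.68 in Atm-KO cells, nonirradiated then irradiated.

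In the limma fit over all 12 arrays, 0 of the 10 genes passed an adjusted p of 0.05 for irradiation in Atm-WT cells, where 0.439% of all features passed. In Atm-KO cells it was also 0 of 10, with 0.00542% of features passing, and the difference of the irradiation effect between genotypes gave the same count and share. None of the 10 reached an unadjusted p of 0.05 in any comparison of this fit, where 166 to 1470 of 18438 features did. The members' median difference was -0.06 in Atm-WT cells and -0.20 in Atm-KO cells, against -0.02 and -0.06 for all features. The SEs of the differences, 0.63 to 2.07, show how little this fit could resolve, and they rest on the number 1 gap. With replicate number as a block the SEs came to 0.17 to 0.35, and still 0 of 10 passed in either genotype, with 1.25% and 0.222% of all features passing, and 0 of 10 for the difference between genotypes, with 0.0271%. Of the 10, 0 in Atm-WT and 2 in Atm-KO cells reached an unadjusted p of 0.05 in that fit, against 2158 and 2953 of 18438 features. With same-numbered pairs within a genotype as the block it was again 0 of 10, against 2.19% of features in Atm-WT, 1.97% in Atm-KO and 0.0217% for the difference.

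Compared number by number, the direction of the irradiation difference depended on the sample in Atm-WT cells. The irradiated sample was lower for 10 of 10 genes among number 1 samples, for 8 of 10 among number 2 and for 0 of 10 among number 3. The medians were -0.22, -0.10 and 0.16. In Atm-KO cells the irradiated sample was lower for 7, 5 and 8 of the 10 genes, with medians of -0.35, -0.10 and -0.19. The Atm-WT number 3 samples shared a slide with the Atm-KO number 1 samples, and on that one slide all 10 genes were higher after irradiation in the former and 7 lower in the latter.

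**Figure D3:**
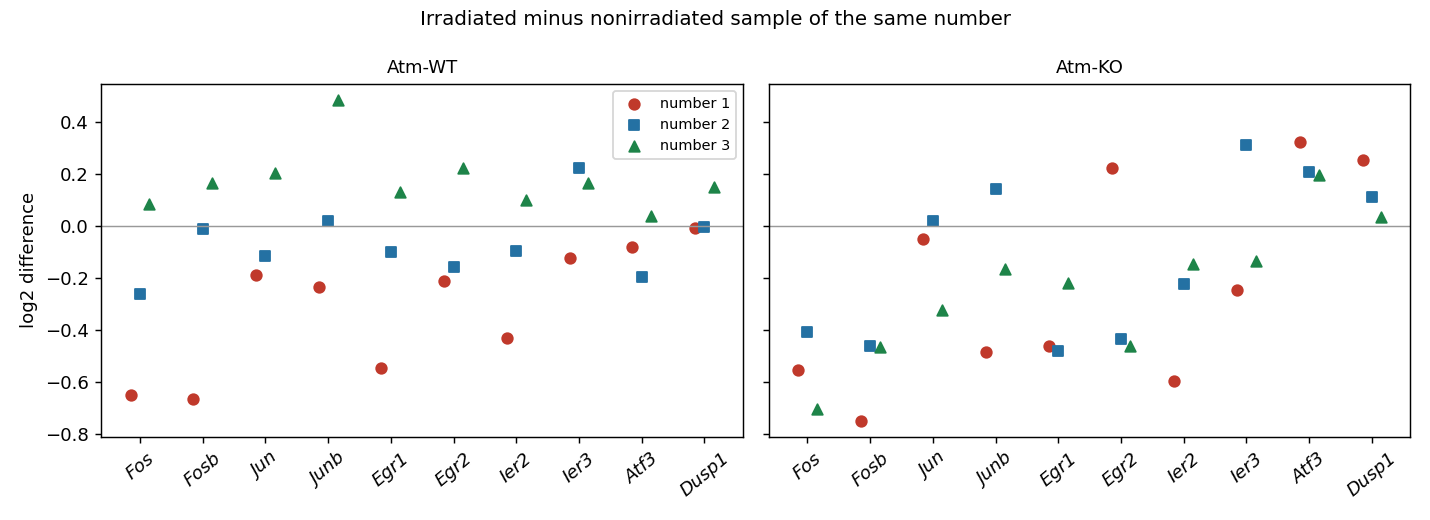
Irradiated minus nonirradiated sample of the same number (y axis, log2) for each immediate early gene, Atm-WT in the left panel and Atm-KO in the right, with colour and shape giving the number. In Atm-WT the red circles (number 1) lie below 0 and the green triangles (number 3) above 0 for all 10 genes; in Atm-KO all 3 Fos and all 3 Fosb points lie below 0 and all 3 Atf3 and Dusp1 points above it.

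Among single genes, Fos was lower in the irradiated sample in 5 of the 6 same-numbered pairs, with differences from -0.70 to 0.09. In Atm-KO cells the Fos differences were -0.55, -0.41 and -0.70 for numbers 1 to 3, and those of Fosb were -0.75, -0.46 and -0.47. Egr1, at -0.46, -0.48 and -0.22, and Ier2, at -0.60, -0.22 and -0.15, were also lower in all 3 Atm-KO pairs. Atf3 and Dusp1 went the other way in those pairs, Atf3 by 0.20 to 0.32 and Dusp1 by at most 0.26. In Atm-WT cells 0 of the 10 genes had the same sign in all 3 pairs. For Fos and Fosb in Atm-KO cells the mean difference was -0.55 and -0.56, with an SE of 0.20 each under the replicate block. Groups overlapped for all 10 genes in both genotypes. Any group's number 1 sample lay below all samples 2 and 3, so this overlap was fixed beforehand and says nothing about irradiation. Of all features, 10.2% and 17.2% had groups that did not overlap. Among samples 2 and 3 alone, 2 of 10 genes did not overlap in Atm-WT cells, Junb and Ier3, and 5 of 10 in Atm-KO cells, where 40.1% and 53.3% of features did not.

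The second comparison asks how Atm-deficient cells differ from wild-type cells. Again 0 of 10 immediate early genes passed limma's test over 12 arrays, against 0.862% of features in nonirradiated and 0.206% in irradiated cells. The median difference, Atm-KO minus Atm-WT, was 0.24 in nonirradiated and 0.06 in irradiated cells, and 0.05 and -0.01 for all features. The replicate block left the count at 0 of 10 in both, with 1.74% and 0.748% of features passing. In that fit 2 and 1 of the 10 reached an unadjusted p of 0.05, against 2496 and 1565 of 18438 features. Genotypes overlapped for all 10 genes under both treatments. The number 1 order fixed this overlap beforehand too, so it says nothing about genotype. Of all features, 13.7% and 6.88% did not overlap. Among samples 2 and 3 alone, 7 genes in nonirradiated and 6 in irradiated cells did not overlap, where 52.7% and 51.1% of features did not.

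Dusp1 and Ier3 differed in opposite directions depending on the number. Dusp1 in Atm-KO minus Atm-WT samples of the same number was 0.59, -0.81 and -0.69 in nonirradiated cells and 0.86, -0.69 and -0.80 in irradiated cells. Number 1 thus had more Dusp1 without Atm and numbers 2 and 3 less, and the 12-array mean difference of -0.30 ± 1.26 (SE) describes neither. Ier3 gave 0.94, -0.48 and -0.05 in nonirradiated and 0.82, -0.39 and -0.35 in irradiated cells. In the number 1 samples all 10 genes were higher without Atm than with it under both treatments, with medians of 0.49 and 0.46. Numbers 2 and 3 had medians of 0.02 and 0.32 in nonirradiated and -0.12 and -0.04 in irradiated cells.

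**Figure D4:**
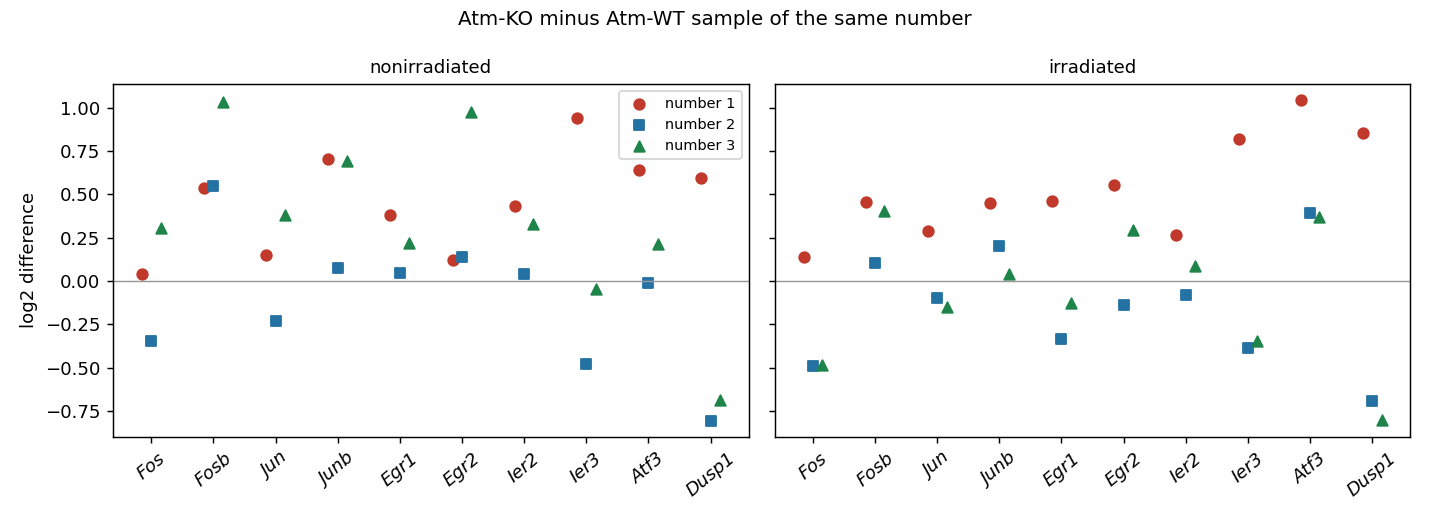
Atm-KO minus Atm-WT sample of the same number (y axis, log2) for each immediate early gene, nonirradiated cells in the left panel and irradiated cells in the right. All red circles (number 1) lie above 0 in both panels, and for Dusp1 the number 2 and 3 points lie between -0.81 and -0.69.

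When only the 8 arrays numbered 2 and 3 were fitted, a setting chosen after the number 1 pattern had been seen, the SEs came to 0.13 to 0.26. Dusp1 was then lower in Atm-KO cells by 0.75 ± 0.132 under both treatments (-0.75 on the log2 scale, SE), which is 0.596 of the Atm-WT level. Fosb was higher in nonirradiated Atm-KO cells by 0.79 ± 0.176. These were 2 of 10 genes past the adjusted threshold in nonirradiated and 1 of 10 in irradiated cells, where 8.57% and 5.66% of all features passed, and as a choice made on the same samples they support nothing. For irradiation that fit passed 0 of the 10 genes in either genotype, where 0.906% of features passed in Atm-WT and 0% in Atm-KO cells. An unadjusted p of 0.05 was reached by 0 and 2 of the 10, against 2582 and 2443 of 18438 features. The only slide with both genotypes sets Atm-KO number 1 against Atm-WT number 3, so no same-numbered pair of genotypes lay on one slide. Markers of macrophages and blood cells moved with genotype. Of 6 measured, 4 were tested. Over 12 arrays, 4 of the 4 tested passed as lower in nonirradiated and 2 of 4 in irradiated Atm-KO cells, with medians of -2.46 and -1.99. In that fit 0.862% and 0.206% of all features passed in either direction. Of 3 endothelial markers tested, 1 also passed as lower in nonirradiated and 0 in irradiated Atm-KO cells. The part of these markers in the Dusp1, Ier3 and Fosb values was not tested.

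Other genes of the early response were taken from a list of 46, again put together with earlier results of these data known. Of these, 45 were on the array and 43 bright enough to test. With replicate number tested by limma's F test after adjustment over all features, 26 of 43 were lower in number 1 and 0 higher, where 15.1% of all features were lower and 13.1% higher. The difference was negative for 39 of 43, with a median of -0.74 against -0.17 over all features, and for 22 of them all number 1 samples lay below all others. This count depends on the setting, although no setting turned its direction. It was 8 of 43 with normexp background correction, where 0.298% of all features passed as lower, and 15 of 43 with no filter on dim probes. It was 14 without the irradiated Atm-WT number 1 sample, 16 without irradiated Atm-WT number 2, irradiated Atm-KO number 1 or irradiated Atm-KO number 2, and 17 without nonirradiated Atm-WT number 2.

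The transcription factors of that list passed in 10 of 16 cases, with a median of -0.80. Nr4a1, an orphan nuclear receptor, was at 2.84 to 3.65 in the 4 number 1 samples and at 6.50 to 7.06 in the 8 others, a difference of -3.52 ± 0.180 (SE; limma adjusted p = 8.01e-05). Egr4, a relative of Egr1, differed by -3.41 ± 0.280 (limma adjusted p = 0.00122). Jund and Fosl1, further AP-1 members, differed by -1.24 ± 0.129 and -1.15 ± 0.123. Fosl2, Klf6 and Klf10 did not pass, with differences of -0.12, 0.32 and 0.16.

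The signalling, secreted and RNA decay genes passed in 16 of 27 cases, with a median of -0.73. Zfp36, whose protein destroys AU-rich early mRNAs, was at -0.01 to 0.92 in the number 1 samples and 3.63 to 4.25 in the others, a difference of -3.42 ± 0.159 (limma adjusted p = 5.26e-05). Arc, known from neurons, fell by 3.00 ± 0.349 in number 1 (limma adjusted p = 0.00476), and Btg2, an antiproliferative gene, was 4.01-fold lower (limma adjusted p = 0.000198). The secreted Ccn1 was lower by 1.75 ± 0.155 on the log2 scale (-1.75), and Dusp6, a phosphatase of Erk, also passed (limma adjusted p = 0.00819). Gadd45a and Tnfaip3, at -0.16 and 0.06, did not pass.

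**Figure D5:**
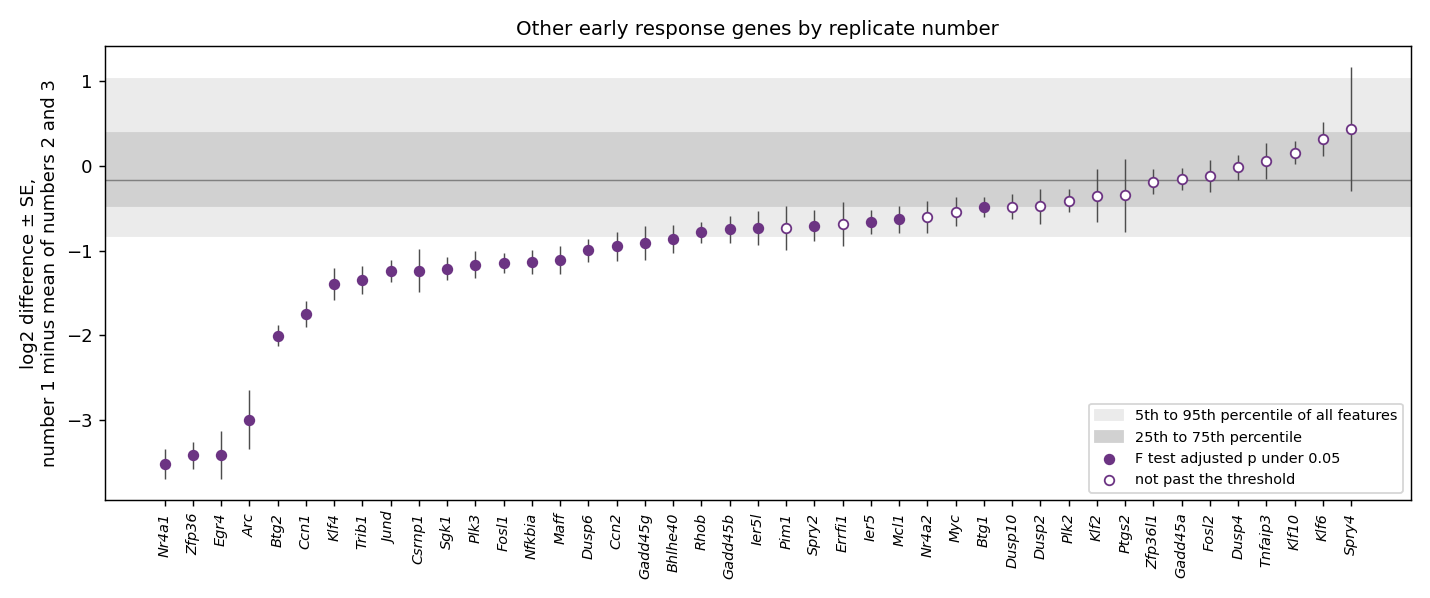
Difference of number 1 from the mean of numbers 2 and 3 (y axis, log2 ± SE) for the 43 tested genes of the other early response lists, ordered by size, with filled points for limma's F test at adjusted p under 0.05 and grey bands for the middle of all features. Of the points, 39 lie below 0 and 26 are filled, and Nr4a1, Zfp36, Egr4 and Arc are the 4 lowest points.

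Genes upstream of the early response did not share one direction. Of 23 tested upstream factors and kinases, 4 were lower and 4 higher in number 1 by the same F test. That is near the shares of all features, 15.1% lower and 13.1% higher, so nothing is read from it about these genes. The same shares stand beside each count in this paragraph. Srf itself was lower, at -0.87 ± 0.126 (limma adjusted p = 0.00941), as were its coactivator Mrtfa, at -0.93 ± 0.149, and the receptor Pdgfrb, at -0.93 ± 0.142. Creb1 was higher, at 1.07 ± 0.203. Of the partners and repressors of AP-1 and Egr proteins, 2 of 10 were lower and 4 higher, among them Batf at 1.79 ± 0.191 and Nab1, a corepressor of Egr proteins, at 0.81 ± 0.212. Of 11 genes known as AP-1 or Egr targets, 3 were lower and 0 higher, among them Mmp3 at -1.27 ± 0.316 and Tgfb1 at -0.88 ± 0.163. Of 10 contractile genes under Srf, 1 passed, Flna, at -0.44.

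Some stress genes around Atf3 were lower, where 15.1% of all features were lower in number 1 and 13.1% higher by the F test. Of 10 integrated stress response genes, 3 were lower in number 1 and 0 higher, with Ppp1r15a, which lets translation resume after stress, at -2.33 ± 0.163 (limma adjusted p = 0.000614). Atf4 and Ddit3, at -0.34 and -0.39, did not pass. Among 12 heat shock genes, 4 were lower and 1 higher. The inducible Hspa1a and Hspa1b were at -1.87 ± 0.143 and -1.81 ± 0.152, whereas Dnaja1 was at 0.86 ± 0.154. Hspa1a and Hspa1b are near-identical copies, so their probes may not separate them.

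Some proliferation and cell type markers also differed by number, where 15.1% of all features were lower in number 1 and 13.1% higher by the F test. Of 15 proliferation genes, 5 were higher in number 1 and 0 lower, with Top2a at 1.55 ± 0.207, Mki67 at 1.49 ± 0.253 and Ccnb1 at 1.01 ± 0.141. Of the 10 fibroblast markers, 4 were lower and 0 higher, and their summed level, in multiples of the 75th percentile, ran from 1357 to 2127 in number 1 and from 1980 to 2648 in the others. The summed level of 4 epithelial markers ran from 1.72 to 4.37 in number 1 and from 0.419 to 0.972 in the others, with Krt8 and Krt18 higher by 1.96 and 2.16. The 4 did not all go one way. Of them 2 passed as higher and 0 as lower, and 1 had a negative difference, of -0.57. The 4 skeletal muscle markers summed to 1.31 to 3.84 in number 1 and to 0.389 to 4.20 in the others. Among them Myog, a muscle transcription factor, was well above background on 4 of 4 number 1 arrays and 2 of 8 others, and Ttn on no number 1 array. The 4 endothelial markers summed to 0.275 to 0.502 in number 1 and 0.119 to 0.391 in the others, and the 6 macrophage and blood markers to 0.385 to 2.60 and 0.429 to 2.60. The muscle, endothelial and macrophage ranges overlapped between the numbers. Ptprc was not well above background on any array numbered 2 or 3. The part of these markers in the early gene pattern was not tested.

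Outside the lists of early and stress genes, the genes most like the mean of the 10 over the 12 arrays were Cbx7, a Polycomb protein, with a Pearson correlation of 0.981, and Mrc2, a collagen receptor, with 0.969. Closest of all were Zfp36 at 0.997 and Nr4a1 at 0.995, followed by Ccn1 at 0.989, Jund at 0.986 and Nfkbia and Ppp1r15a at 0.978 each. Most opposed were Ntf3, a neurotrophin, at -0.981, Krt8 at -0.963, the condensin subunit Smc2 at -0.959 and Sema6d at -0.952. Ntf3 lay between -1.92 and -1.24 in number 1 samples and between -3.89 and -3.15 in the others. These correlations are over arrays that share the number 1 difference, and they carry no p.

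In the comparisons of irradiation and genotype, the fit over 12 arrays called 0 of the 43 other early response genes. Of all features it called 0.439% and 0.00542% for irradiation in Atm-WT and Atm-KO, and 0.862% and 0.206% for genotype in nonirradiated and irradiated cells. At an unadjusted p of 0.05 it had 2 of the 43 for irradiation in Atm-WT, 3 in Atm-KO and 3 for genotype under each treatment. In the same order, 1190, 1470, 1395 and 965 of all 18438 features reached that p, so nothing is read from these counts. Fosl1, which encodes the AP-1 member Fra-1, was higher in the irradiated sample in 3 of 3 Atm-WT pairs, by 1.21, 1.37 and 1.55, and in 3 of 3 Atm-KO pairs, by 1.16, 1.31 and 1.14. Its mean difference was 1.37 ± 0.503 in Atm-WT and 1.20 ± 0.503 in Atm-KO cells (limma adjusted p = 0.555 and 0.566), and with the replicate block the SE was 0.164 and the limma adjusted p 0.00369 and 0.0331. Fosl1 was also higher without Atm than with it in 3 of 3 nonirradiated and 3 of 3 irradiated same-numbered pairs, by 1.07 to 1.61. With the block those differences were 1.56 (limma adjusted p = 0.00135) and 1.39 (0.00636), against 0.303 and 0.594 for the fit without it. The numbers do not pair the nonirradiated samples of the genotypes, so the first of these rests on a number alone. For irradiated samples the pairing is uncertain at number 3, which correlated more with a differently numbered sample. Dusp4, another MAP kinase phosphatase, passed for irradiation in Atm-KO cells with pairs within the genotype as the block, at 0.94 ± 0.180 (limma adjusted p = 0.0377). It did not pass with the block over both genotypes (limma adjusted p = 0.0802) or on the 8 arrays numbered 2 and 3 (0.209). On those 8 arrays Fosl1 did not pass for irradiation either (limma adjusted p = 0.0833 in Atm-WT and 0.183 in Atm-KO cells), and passed for genotype (0.0206 in nonirradiated and 0.0462 in irradiated cells).

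Dusp2, a nuclear phosphatase of MAP kinases, was higher without Atm than with it in 3 of 3 pairs under both treatments. The difference was 1.60 in irradiated cells, with limma adjusted p = 0.0359 with the block and 0.111 without it. Among the 8 arrays numbered 2 and 3, Arc was higher in Atm-KO cells by 2.88 ± 0.166 in nonirradiated and 2.35 ± 0.166 in irradiated cells (limma adjusted p = 0.000751 and 0.00169), and in number 1 it was higher by 0.88 and 0.33. Egr4 was higher there by 1.25 and 1.45 (limma adjusted p = 0.0373 and 0.0298), but in number 1 it differed by -0.63 in nonirradiated and 1.44 in irradiated cells. The fit to these 8 arrays was chosen after the number 1 pattern was seen. With the replicate block on 12 arrays neither gene passed, at a limma adjusted p of 0.0518 and 0.206 for Arc and of 0.518 and 0.167 for Egr4 in nonirradiated and irradiated cells.

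Known targets of AP-1 and Egr were then read for irradiation. The limma fit without pairs called 0 of 11 in either genotype, with a median of 0.55 in Atm-WT and 1.06 in Atm-KO cells. That fit called 0.439% and 0.00542% of all features. At an unadjusted p of 0.05 it had 1 and 5 of the 11, against 1190 and 1470 of 18438 features. With same-numbered pairs within a genotype as the block, 6 of 11 passed as higher in irradiated Atm-KO cells and 1 of 11 in Atm-WT cells, where 1.97% and 2.19% of all features passed in either direction. With the block over both genotypes, and on the 8 arrays numbered 2 and 3, limma called 0 of 11 in either genotype. Those that passed in Atm-KO cells with pairs within the genotype included the proteases Mmp13, by 2.08 ± 0.277, and Mmp3, by 1.63 ± 0.238, with Spp1, by 1.53 ± 0.206, Cd44, by 1.16 ± 0.184, and Fgf2, by 1.06 ± 0.195 (limma adjusted p from 0.0161 to 0.0325). With those pairs the difference between genotypes passed limma's test for 0 of the 11, against 0.0217% of features. At an unadjusted p of 0.05 it had 3 of the 11, against 603 of 18438 features. In the Atm-KO pairs, 4 of the 10 immediate early genes lay lower in all 3 pairs and 2 higher. With pairs within a genotype, 9 of 15 proliferation genes passed as lower in irradiated Atm-KO and 3 of 15 in Atm-WT cells, against 0 of 15 without the block, 2 of 15 in each genotype with the block over both, and 2 of 15 in Atm-WT and 0 of 15 in Atm-KO cells on the 8 arrays. Their part in these values was not tested.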

How the data were processed

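Per the labels, Cy3-labelled cRNA of 12 samples was hybridised to single-colour Agilent arrays. The deposited scanner files were written by Feature Extraction 10.7.1.1 per the file headers, while the submitters' processing notes name version 11.0. Per the file headers, the deposited intensity (gProcessedSignal) is background-subtracted, and flags state whether a probe is well above background or saturated. The series matrix holds the authors' deposited log2 values of the same arrays, whose scale and centring are not stated. Its columns, with medians from -0.426 to 0.268, matched the scanner values centred per probe with Pearson correlations of at least 0.997, in the same direction, and served as an alternative. A further 76 of its rows had no matching probe and were not used.

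Control spots were left out, spots of a probe averaged, and log2 intensity taken minus each array's 75th percentile. Of 41174 probes, 25097 were named through RefSeq accessions of a gene table whose assembly differs from the array's mm9, so none of its coordinates were used with the array. A gene with several probes was represented by its brightest, and a feature was tested if some group had it well above background on all its 3 arrays. Fits used limma 3.58.1 in R 4.3.3 with group means, eBayes and Benjamini-Hochberg adjustment over 18438 features, and were tested on simulated data. No depth applies to arrays, so their number limits the precision. gMeanSignal was not used, and gMedianSignal stood in for it in the normexp alternative (offset 50).

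The 10 genes and all lists were chosen with earlier results of these data known. Named were all 10 genes, list members past adjusted p of 0.05 (at most 4 a list by smallest p, otherwise up to 3 by size), and the 8 most and 4 least correlated genes. Genes named for replicate number, pairs or AP-1 targets beyond that rule, the F test for replicate number and the fit of 8 arrays were chosen after values were seen. The values of 1 gene of the AP-1 target list are not reported here, though the counts include it. Same-numbered samples deviated together for irradiation (Pearson correlations of 0.85, 0.73 and 0.48 in Atm-WT, 0.51, 0.27 and 0.50 in Atm-KO) and for genotype in irradiated cells (0.63, 0.62 and 0.22), but not for genotype in nonirradiated cells (0.00, 0.18 and -0.22), so blocked values of that comparison rest on a number alone. Alternatives covered background correction, scaling, the matrix, filters, probes, slide, the replicate block and leaving out each sample.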

Additional observations from a re-analysis of the deposited data

How the results depend on the processing

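Over 23 alternatives, the count of the 10 genes past the threshold stayed at 0 in each of the 5 comparisons, except on the 8 arrays numbered 2 and 3, where it was 2 for genotype in nonirradiated and 1 in irradiated cells. The median differences were not stable, and each of the 50 gene differences changed sign in at least 1 alternative. Leaving out a number 1 sample alone raises the mean of its group by part of the number 1 gap. That can turn a sign by itself, so these sign changes and the shifts on leaving out samples do not measure stability to processing. The replicate block left the differences themselves unchanged. Leaving out each sample in turn kept all 5 counts at 0 and moved the medians from -0.90 to 0.93 (irradiation, Atm-WT), -0.93 to 0.63 (irradiation, Atm-KO), -1.20 to 0.72 (their difference), -0.59 to 1.08 (genotype, nonirradiated) and -0.86 to 0.92 (genotype, irradiated). With slide as a fixed term the genotype medians became -2.13 in nonirradiated and -2.37 in irradiated cells, because the only slide with both genotypes sets Atm-KO number 1 against Atm-WT number 3.

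The number 1 pattern, by which the 10 genes were chosen, varied less in the settings run. All 10 genes were lowest in number 1 of all 4 groups in each setting that changes values. Leaving out a sample could not lower that count, since it only removes values from a complete order, so those runs test nothing about it. The median difference ran from -2.53 to -2.40 without single samples. The count of other early genes lower in number 1 was 8 with normexp, 15 with no filter on dim probes and 14 to 30 on leaving out single samples, against 26. The cause was not tested. Scaling by the array median moved the median number 1 difference of all features from -0.17 to -0.33, and 31 genes were then lower.

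The replicate block kept the count of the 10 genes at 0 in all 5 comparisons, as did pairs within a genotype in the 3 that it covers. The pairing is less certain in Atm-KO cells, where number 2 had a correlation of 0.27 with number 2 but 0.33 with a differently numbered sample. It is also uncertain for genotype in irradiated cells. There Atm-WT number 3 had 0.22 with Atm-KO number 3 but 0.34 with number 2, and Atm-KO number 3 had 0.39 with Atm-WT number 2. All 11 probes of the 10 genes were well above background on all 12 arrays.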
